A study of Homo sapiens with 12 samples.

Results

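Described here are 43 genes that make ribosomes in the nucleolus: RNA polymerase I and its factors, abundant nucleolar proteins, the proteins of the RNA-modifying particles, and assembly factors of both ribosomal subunits. They were chosen by name, as rows whose Ensembl identifier carries one of 43 fixed symbols, and all 43 were found among the 60668 genes of the files. All 43 also passed the filter on low counts, with 13972 genes tested in all.

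The cells are MOLM-13, an established human acute myeloid leukaemia line with an MLL fusion gene and an internal duplication in the FLT3 receptor gene. RNA depleted of ribosomal RNA was sequenced from 4 groups of 3 libraries, treated for 8 days by the series' design text: gilteritinib and MI-3454 together, called the combination here; MI-3454 alone, a blocker of the contact between menin and MLL1; gilteritinib alone, an inhibitor of the FLT3 kinase; and DMSO, the solvent. All groups share the single parental line and its culture medium, the labels give no doses, and the cultures were seeded as triplicates, so p-values measure the spread between cultures of this line only. Of 10 myeloid markers checked, all 10 had counts in every library, among them CD33, SPI1 and CEBPA. Of 12 markers of other cell types, 3 were at 0 in all libraries, among them MS4A1 of B cells and HBB of red cells. PECAM1, an endothelial marker on the same list, had 13640 counts over the combination libraries and 5415 over the DMSO libraries. CD3D, KRT8 and VWF had low counts in every library.

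Ribosome production starts when RNA polymerase I copies the repeated ribosomal DNA into a long precursor RNA. Small nucleolar ribonucleoproteins (snoRNPs) then methylate it (box C/D type) or convert uridines to pseudouridine (H/ACA type), and assembly factors cut, fold and export the pre-40S and pre-60S particles. The demand is high in fast-growing leukaemia cells, and the transcription factor MYC is a textbook activator of this gene set through the E-box, the letters CACGTG.

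Because MYC itself was among the genes that fell, the E-box was looked for in RefSeq promoter windows (GRCh38.p14, 250 bases before to 50 after each start), which the table gives for 35 of the 43 genes. Shown are the 7 genes with the E-box whose level fell most with the combination, each as 30 bases on the gene's own strand with the E-box in capitals.
DDX21: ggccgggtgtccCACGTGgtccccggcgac
LYAR: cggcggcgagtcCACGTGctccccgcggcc
RRP9: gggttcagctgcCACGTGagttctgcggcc
MRTO4: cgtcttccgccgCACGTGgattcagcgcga
PES1: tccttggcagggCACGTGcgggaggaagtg
WDR43: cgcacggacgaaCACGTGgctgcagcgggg
BYSL: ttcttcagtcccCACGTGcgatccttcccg

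These stretches lie at chr10:68956604-68956633 on the plus strand for DDX21, chr4:4290068-4290097 on the minus strand for LYAR and chr3:51941892-51941921 on the minus strand for RRP9. They lie at chr1:19251807-19251836 on the plus strand for MRTO4 and chr22:30591880-30591909 on the minus strand for PES1. For WDR43 the stretch is chr2:28894658-28894687 and for BYSL chr6:41921515-41921544, both on the plus strand. Relative to the RefSeq start the E-box began at base -31 in DDX21, -64 in LYAR, -5 in RRP9, 14 in MRTO4, 13 in PES1, 3 in WDR43 and 28 in BYSL. The window searched, 250 bases before to 50 after a start, allowed no match farther away. Each of the 7 stretches overlapped an exon of its own gene in GENCODE 29. DDX21 and LYAR have a pair of RefSeq starts, and the match belongs to 1 of them.

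The E-box was in the windows of 15 of the 35 genes (42.9%), against 12.8% of the 9973 tested genes with a window and 7.26% of all 35116 windows. The other motifs, also searched on both strands, were those of ETS factors, SP factors, NF-Y, CREB and STAT factors. The ETS motif CCGGAAG was in 37.1% of the 35 genes and 23.2% of tested genes, the SP motif GGGCGG in 71.4% and 76.2%, and the NF-Y motif ATTGG in 42.9% and 43.5%. The CREB motif TGACGTCA was in 0 of the 35 genes and 3.93% of tested genes, and the STAT motif TTCNNNGAA in 2.86% and 8.24%. The 15 genes with the E-box had a median log2 change of -1.13 in the combination against DMSO, with a range of -1.87 to -0.18. The 20 with a window that lacks it had a median of -0.98 and a range of -1.53 to -0.34. Both medians thus lay below 0, and the ranges overlapped. The 7 genes shown were picked by the size of their fall. NOLC1, NOP58, POLR1E, TCOF1, BOP1, RRP1B, RRP12 and RRS1 have no window in the table. A match describes letters only and shows no binding, and the part of MYC in these changes was not tested.

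Levels were put on a scale of counts per 1e+06 gene counts (CPM, with edgeR's TMM factors), and log2 fold changes carry their standard error (SE). Gene counts ran from 6.47 to 12.1 M per library. Reads placed uniquely but outside annotated exons made up 28.5 to 36.5% with the combination, 17.4 to 25.5% with MI-3454 and 15.6 to 17.8% with gilteritinib, against 16.6 to 20.4% with DMSO. Reads that fit several genes made up 4.65 to 5.82% with the combination, 6.0 to 10.3% with MI-3454 and 7.51 to 10.2% with gilteritinib, against 6.43 to 9.45% with DMSO. RN7SL1, a small cytoplasmic RNA, took 1.17 to 1.66% with the combination, 2.02 to 4.56% with MI-3454 and 2.22 to 2.88% with gilteritinib, against 2.31 to 4.27% with DMSO. The combination libraries thus stood apart from all others in each of these shares, which moved with the results below, and their part in them was not tested. The library of each group highest in RN7SL1 was combination 1, MI-3454 3, gilteritinib 2 and DMSO 2. Mitochondrial genes took 2.84% of gene counts in gilteritinib 2 and 0.77 to 1.36% in the other libraries. The part of this share in the results was not tested. Of the 10 myeloid markers, 6 rose and 3 fell with the combination. Their summed level was 16569 to 17213 CPM with the combination, 9090.2 to 11090.0 with MI-3454 and 2972 to 3372 with gilteritinib, against 2796 to 2980 CPM with DMSO. LYZ, the lysozyme gene, made up most of this sum, with 380531 counts over the 3 combination libraries and 12781 over the 3 DMSO libraries. The 3 that fell were FLT3, HOXA9 and MEIS1. The 12 markers of other cell types summed to 508 to 534 CPM with the combination, against 165 to 204 CPM with DMSO. With MI-3454 that sum was 281 to 310 CPM and with gilteritinib 210 to 248 CPM. The part of these changes in the results was not tested.

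The combination lowered nearly the whole set. Against DMSO, 42 of 43 genes fell and 0 rose (edgeR quasi-likelihood, adjusted p under 0.05), and 23 of them fell at least 2-fold. Over all tested genes 57.5% were called, 28.4% lower and 29.2% higher. None of the 43 rose at an unadjusted p under 0.05 either (0 genes), and DESeq2 also called 42 lower and 0 higher. The median log2 change was -1.07 for the 43 genes and 0.00 for all tested genes. Summed over the 43 genes, the level was 3570, 3387 and 3208 CPM with the combination, 5394, 5065 and 5441 with MI-3454 and 5792, 6537 and 5610.1 with gilteritinib, against 6731, 6927 and 7107 CPM with DMSO. The combination libraries were the lowest, the DMSO libraries were the highest, and no group overlapped a neighbour in this order. These are shares of the counts, and in bulk RNA fewer transcripts per cell and a smaller part of the cells making them cannot be told apart.

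**Figure D1:**
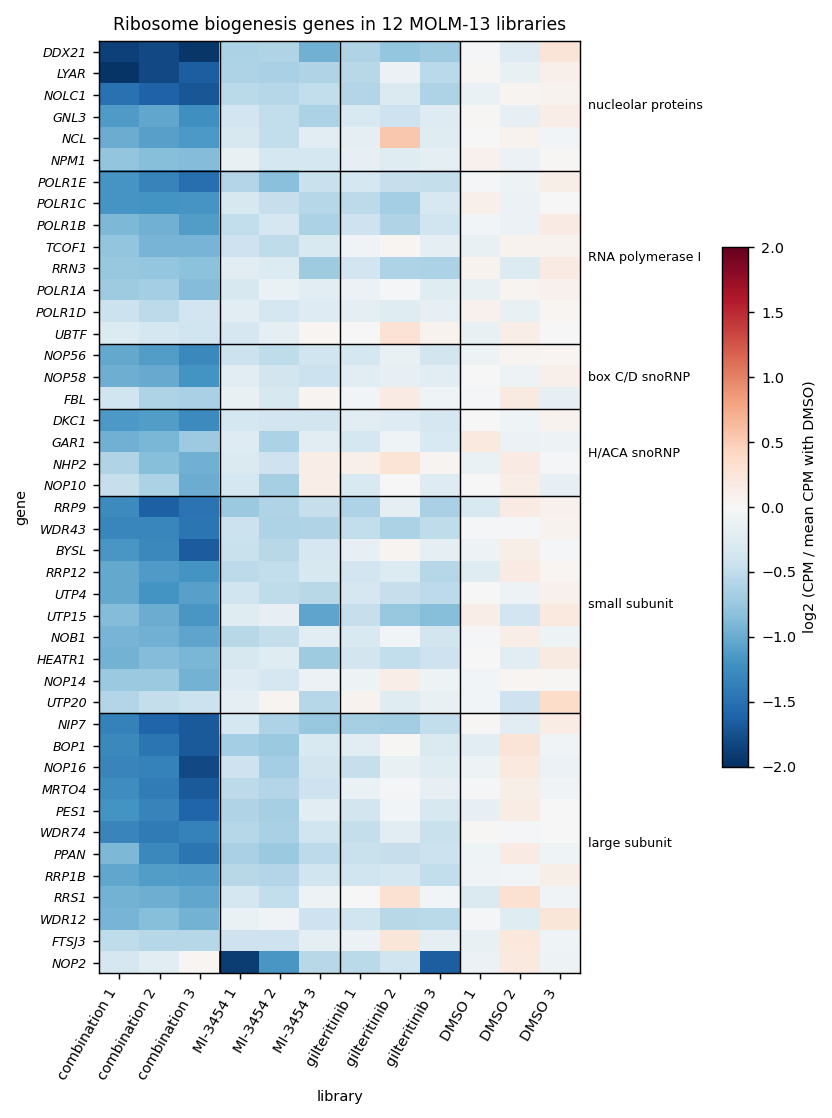
Log2 ratio of the CPM in each library (columns) to the mean CPM with DMSO for the 43 genes (rows, by role and then by change with the combination), with colours ending at 2 and -2. The combination columns have the lowest mean for 42 of the 43 genes, all but NOP2, and the columns of the single agents lie between them and DMSO for most genes.

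Per kilobase of exon, NPM1 had the highest level, at 166 ± 4.87 CPM per kb with the combination and 294 ± 20.7 with DMSO (SD, n = 3 each). FBL followed, at 96.5 ± 9.05 with the combination and 141 ± 17.1 with DMSO, and then NCL, at 57.9 ± 3.20 with the combination and 122 ± 5.43 with DMSO. With DMSO, BOP1 came next at 98.4 ± 17.1, then DDX21 at 87.7 ± 16.1 and NOP10 at 87.5 ± 9.07, and the SD ranges of these 3 overlapped, as did those of FBL and NCL. UTP20, at 5.04 ± 1.37, and UTP15, at 3.62 ± 0.727, were the lowest beside NOP2. The gene NOP2, an rRNA cytosine methyltransferase, had only 178 counts over all 12 libraries. In GENCODE 29, 54.4% of its exon bases also belong to the read-through gene AC006064.6 on the same strand, which had 0 counts, and the part of this overlap in its low values was not tested.

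The nucleolar proteins included the largest falls, in DDX21, LYAR and NOLC1, while the most abundant members of this class, NPM1 and NCL, fell by less. DDX21 (ENSG00000165732.13, chromosome 10, 68956128 to 68985073, GRCh38), an RNA helicase that acts in rRNA transcription and processing, had 121, 126 and 115 CPM with the combination, 285, 289 and 227 with MI-3454 and 291, 257 and 268 with gilteritinib, against 427, 367 and 527 CPM with DMSO. Every combination library lay below all others and every DMSO library lay above all others. The log2 change with the combination was -1.87 ± 0.13 (edgeR adjusted p = 3.02e-09), a 3.66-fold fall. With MI-3454 it was -0.72 ± 0.15 and with gilteritinib -0.70 ± 0.13, both also called.

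LYAR (ENSG00000145220.14, chromosome 4, 4267701 to 4290169), a nucleolar protein of pre-rRNA processing, had 7.20, 8.03 and 8.93 CPM with the combination, 18.3, 18 and 18.5 with MI-3454 and 19.2, 25.8 and 19.3 with gilteritinib, against 28.6, 25.5 and 30.3 CPM with DMSO. Here the combination libraries were again the lowest, and gilteritinib 2 was the single treated library that overlapped the DMSO libraries. The log2 change was -1.81 ± 0.15 with the combination (adjusted p = 2.37e-08), -0.62 ± 0.13 with MI-3454 and -0.40 ± 0.14 with gilteritinib, where it did not pass the test (adjusted p = 0.084).

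NOLC1 (ENSG00000166197.16, chromosome 10, 102152176 to 102163871), the chaperone of snoRNPs also known as Nopp140, had 95.7, 87.1 and 82.1 CPM with the combination, 185, 180.0 and 189.9 with MI-3454 and 179, 220.0 and 174 with gilteritinib, against 245, 279 and 280.1 CPM with DMSO. All treated libraries lay below all DMSO libraries. Its log2 change was -1.60 ± 0.11 with the combination, -0.54 ± 0.11 with MI-3454 and -0.49 ± 0.12 with gilteritinib, all called, though the call with gilteritinib ended without DMSO 3, gilteritinib 1 or gilteritinib 3 (adjusted p up to 0.091).

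NCL (ENSG00000115053.16, chromosome 2, 231453531 to 231483641) encodes nucleolin, which binds pre-rRNA and nucleolar chromatin. It had 425, 397 and 381 CPM with the combination, 678, 600.5 and 730.4 with MI-3454 and 745, 1231 and 712 with gilteritinib, against 835, 885 and 811 CPM with DMSO. Gilteritinib 2 was the highest of all 12 libraries, while the other gilteritinib libraries lay below DMSO. The log2 change with the combination was -1.07 ± 0.11, and neither MI-3454 (-0.33 ± 0.12, adjusted p = 0.074) nor gilteritinib (0.09 ± 0.18, adjusted p = 0.79) passed the test.

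NPM1 (ENSG00000181163.13, chromosome 5, 171387116 to 171411137), nucleophosmin, the histone and ribosome chaperone whose gene is often mutated in this leukaemia, had 655, 627 and 621 CPM with the combination, 1013, 879.8 and 879.8 with MI-3454 and 1003, 953 and 984 with gilteritinib, against 1195, 1039.9 and 1146 CPM with DMSO. The combination libraries lay well below every other library, and all single-agent libraries also lay below all DMSO libraries. Its log2 change was -0.83 ± 0.11 with the combination (adjusted p = 5.71e-06), and -0.29 ± 0.12 with MI-3454 and -0.20 ± 0.10 with gilteritinib, where it was not called (adjusted p = 0.12 and 0.22). NPM1 has many near-identical pseudogene copies, so reads may have been lost in counting. GNL3, nucleostemin, a GTP-binding protein of pre-rRNA processing, changed by -1.13 ± 0.11 with the combination. All 6 genes of this class fell with the combination, with a median of -1.36.

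**Figure D2:**
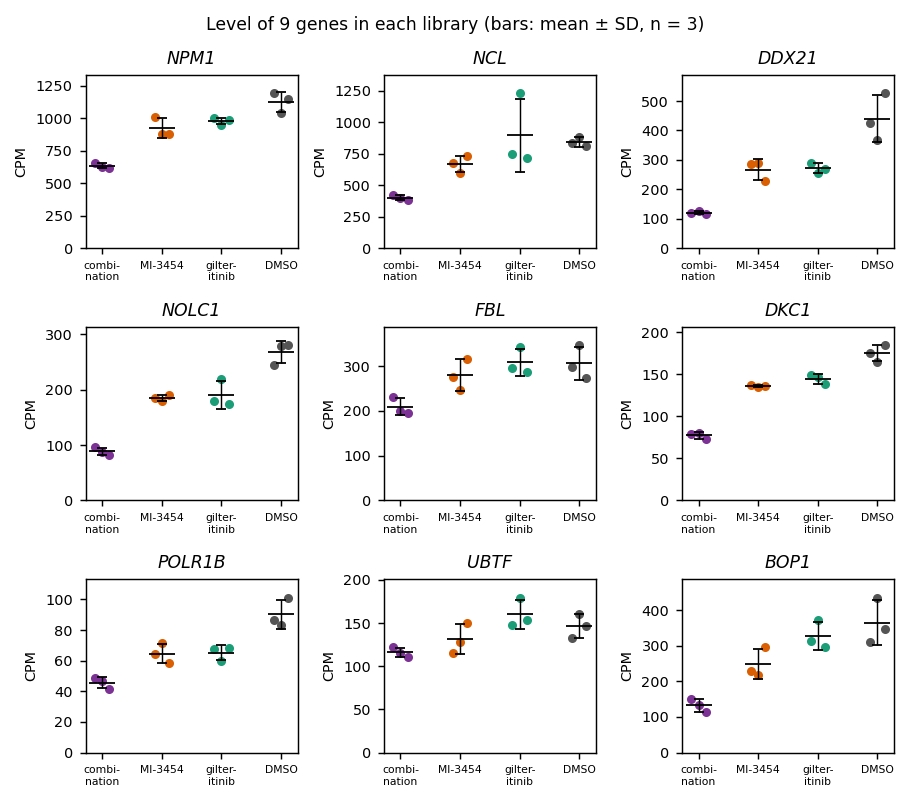
CPM in each library for 9 of the genes (points, with the mean and SD of the 3 libraries of a group as bars, on axes from 0). The combination points lie below all DMSO points in each panel, while MI-3454 points reach into the DMSO range for FBL and UBTF, and gilteritinib points do so for FBL, UBTF and BOP1. For NCL, 2 gilteritinib points lie below the DMSO points and 1 lies above them.

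RNA polymerase I was lowered unevenly. All 8 genes of this class fell with the combination, with a median log2 change of -0.83 that ran from -1.33 to -0.34. POLR1B (ENSG00000125630.15, chromosome 2, 112541915 to 112577150), part of the active centre, had 48.5, 46.6 and 41.5 CPM with the combination, 64.3, 71.3 and 58.4 with MI-3454 and 67.8, 59.5 and 68.2 with gilteritinib, against 86.5, 83.2 and 101 CPM with DMSO. No treated library reached a DMSO library. The log2 changes were -0.98 ± 0.11 with the combination, -0.48 ± 0.13 with MI-3454 and -0.47 ± 0.11 with gilteritinib, all called. The call with MI-3454 ended without DMSO 3 or MI-3454 1 (adjusted p up to 0.096), and that with gilteritinib ended without DMSO 3 or gilteritinib 2 (adjusted p up to 0.061).

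POLR1A (ENSG00000068654.16, chromosome 2, 86020216 to 86106155), the largest subunit, had 91.7, 93.6 and 82.5 CPM with the combination, 121, 138 and 129 with MI-3454 and 139, 147 and 127 with gilteritinib, against 136, 155 and 160.1 CPM with DMSO. The combination libraries lay apart, whereas MI-3454 and gilteritinib both reached into the range of DMSO. The log2 change was -0.75 ± 0.11 with the combination, and -0.22 ± 0.12 and -0.13 ± 0.10 with MI-3454 and with gilteritinib, which were not called (adjusted p = 0.23 and 0.44).

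Of the other subunits, POLR1E, which helps initiation, had 27.4, 24.6 and 21.8 CPM with the combination, 41.3, 34.9 and 45.7 with MI-3454 and 48.5, 45.2 and 44.7 with gilteritinib, against 60.7, 58.2 and 67.5 CPM with DMSO. All treated libraries lay below DMSO, and its log2 changes were -1.33 ± 0.12, -0.61 ± 0.13 and -0.43 ± 0.10 with the combination, MI-3454 and gilteritinib, all called. The call with gilteritinib ended without DMSO 3, gilteritinib 2 or gilteritinib 3 (adjusted p up to 0.085). POLR1C, shared with RNA polymerase III, changed by -1.19 ± 0.11 with the combination and POLR1D, its partner in the assembly platform, by -0.45 ± 0.11.

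Next come the factors that bring the polymerase to ribosomal DNA. RRN3 (ENSG00000085721.12, chromosome 16, 15060022 to 15094317), known as TIF-IA, which joins the polymerase to its promoter, had 41.8, 41.3 and 39.8 CPM with the combination, 60.7, 58.3 and 43 with MI-3454 and 53.9, 45.8 and 45.5 with gilteritinib, against 73.8, 58.5 and 79.5 CPM with DMSO. The combination libraries were the lowest, with MI-3454 3 close above them, the gilteritinib libraries lay below DMSO, and MI-3454 1 reached into the range of DMSO. Its log2 change was -0.78 ± 0.12 with the combination and -0.54 ± 0.13 with gilteritinib, and -0.39 ± 0.16 with MI-3454, which was not called (adjusted p = 0.12). The gilteritinib call ended without DMSO 1, DMSO 3 or gilteritinib 3 (adjusted p up to 0.07). RRN3 has near-identical pseudogenes, so its counts are uncertain.

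UBTF (ENSG00000108312.15, chromosome 17, 44205033 to 44221626), the upstream binding factor that keeps ribosomal DNA open, had 122, 115 and 111 CPM with the combination, 116, 128 and 150.3 with MI-3454 and 147, 179.6 and 154 with gilteritinib, against 133, 161 and 146 CPM with DMSO. The combination libraries lay below DMSO, but MI-3454 1 lay within the range of the combination, and the gilteritinib libraries overlapped DMSO. Its log2 change of -0.34 ± 0.11 with the combination was the smallest among the called genes (adjusted p = 0.013). This call ended without combination 2 or combination 3 (adjusted p up to 0.063), and also with total counts as the scaling. TCOF1 (ENSG00000070814.20, chromosome 5, 150357629 to 150400308), treacle, a scaffold for polymerase and UBTF, had 73.2, 66.3 and 66.4 CPM with the combination, 94.8, 88.8 and 101 with MI-3454 and 120.0, 129.7 and 110.0 with gilteritinib, against 113, 133 and 132 CPM with DMSO. Gilteritinib overlapped DMSO, whereas the other groups did not, and the log2 changes were -0.87 ± 0.11 with the combination, -0.41 ± 0.12 with MI-3454 and -0.07 ± 0.11 with gilteritinib (adjusted p = 0.7). The MI-3454 call ended without DMSO 2, DMSO 3, MI-3454 1 or MI-3454 2 (adjusted p up to 0.13).

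**Figure D3:**
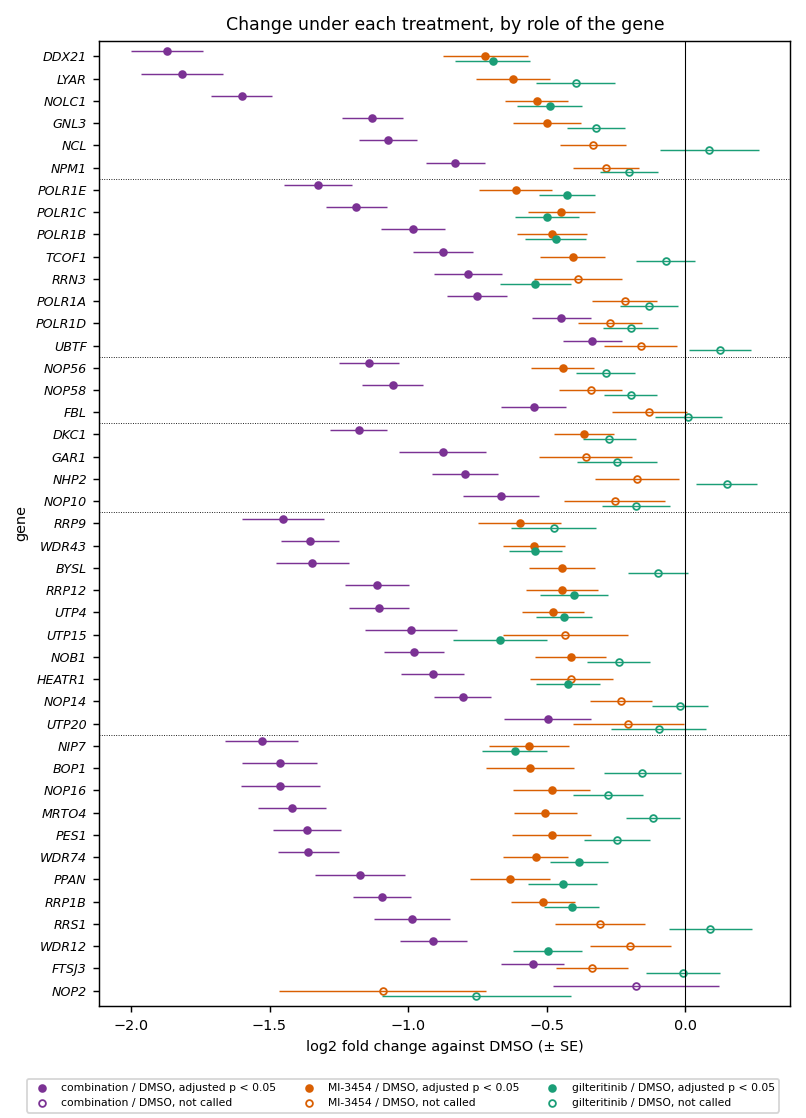
Log2 fold change against DMSO with its SE for each of the 43 genes under the combination, MI-3454 and gilteritinib (filled: adjusted p under 0.05). The combination values lie leftmost for 42 genes, and gilteritinib values lie right of 0 for NCL, UBTF, FBL, NHP2 and RRS1.

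The snoRNP proteins fell with the combination in 7 of 7 cases. Of the box C/D proteins, NOP56 (ENSG00000101361.17, chromosome 20, 2652145 to 2658393), a core scaffold, had 145, 136 and 120.2 CPM with the combination, 218, 208 and 225 with MI-3454 and 230.1, 266 and 229.6 with gilteritinib, against 275, 307 and 304 CPM with DMSO. Every treated library lay below every DMSO library. The log2 change was -1.14 ± 0.11 with the combination and -0.44 ± 0.11 with MI-3454, both called, and -0.29 ± 0.11 with gilteritinib (adjusted p = 0.093). The MI-3454 call ended without DMSO 3, MI-3454 1 or MI-3454 2 (adjusted p up to 0.075). NOP58, its partner, changed by -1.06 ± 0.11.

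FBL (ENSG00000105202.9, chromosome 19, 39834458 to 39846414), fibrillarin, the methyltransferase of the same particle, had 232, 201 and 196 CPM with the combination, 277, 246 and 317 with MI-3454 and 296, 343 and 288 with gilteritinib, against 298, 347 and 274 CPM with DMSO. The combination lay below DMSO, and both single agents overlapped it. The log2 change was -0.55 ± 0.12 with the combination, the smallest of the box C/D proteins, with -0.13 ± 0.14 for MI-3454 and 0.01 ± 0.12 for gilteritinib, neither of them called. DKC1 (ENSG00000130826.18, chromosome X, 154762742 to 154777689), dyskerin, the pseudouridine synthase of H/ACA particles and of telomerase, had 78.7, 80.4 and 72.4 CPM with the combination, 137, 134 and 136 with MI-3454 and 149, 146 and 138 with gilteritinib, against 175, 165 and 184 CPM with DMSO. All treated libraries lay below all DMSO libraries. Its log2 change was -1.18 ± 0.10 with the combination, and -0.36 ± 0.11 with MI-3454, both called, and -0.27 ± 0.10 with gilteritinib (adjusted p = 0.075). The MI-3454 call ended without DMSO 1, DMSO 3, MI-3454 1 or MI-3454 2 (adjusted p up to 0.14), and also with total counts as the scaling. The other H/ACA proteins GAR1, NHP2 and NOP10 changed by -0.88 ± 0.16, -0.80 ± 0.12 and -0.67 ± 0.14 with the combination.

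Small-subunit factors fell in 10 of 10 cases with the combination, with a median of -1.05. RRP9, a protein of the U3 particle, changed by -1.45 ± 0.15. WDR43, which belongs to the group that links transcription to early processing, had 53.7, 53.6 and 48.1 CPM with the combination, 98.4, 86.8 and 87 with MI-3454 and 94.7, 85.6 and 92.9 with gilteritinib, against 129, 129 and 139.8 CPM with DMSO. All treated libraries lay below DMSO, and the changes of -1.35 ± 0.10, -0.55 ± 0.11 and -0.54 ± 0.10 with the combination, MI-3454 and gilteritinib were all called, also without any single library. BYSL, bystin, needed for the pre-40S particle, had 29.7, 27.4 and 21 CPM with the combination, 48.7, 45.1 and 53 with MI-3454 and 59.3, 69 and 58.4 with gilteritinib, against 61.9, 72.3 and 65.6 CPM with DMSO. Gilteritinib overlapped DMSO here and MI-3454 did not, and the log2 changes were -1.34 ± 0.13 with the combination, -0.44 ± 0.12 with MI-3454 and -0.10 ± 0.11 with gilteritinib (adjusted p = 0.58). The MI-3454 call ended without DMSO 2, DMSO 3, MI-3454 1 or MI-3454 2 (adjusted p up to 0.11).

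UTP15, of the complex that starts pre-rRNA processing, had 12.6, 11.5 and 10.2 CPM with the combination, 19.4, 20.3 and 11.1 with MI-3454 and 16.6, 13.6 and 12.7 with gilteritinib, against 25, 17.6 and 26.1 CPM with DMSO. MI-3454 spread from the range of the combination into that of DMSO, and the other treated libraries lay below DMSO. The change with MI-3454, -0.43 ± 0.23, was not called (adjusted p = 0.22), whereas those with the combination (-0.99 ± 0.17) and gilteritinib (-0.67 ± 0.17) were. The gilteritinib call ended without DMSO 1, DMSO 3, gilteritinib 2 or gilteritinib 3 (adjusted p up to 0.087). UTP4, HEATR1, NOP14, RRP12 and NOB1 changed by -1.11 to -0.80 with the combination. UTP20 changed by -0.50 ± 0.16, a call that ended without DMSO 3 (adjusted p up to 0.1), where the log2 change was -0.27, and also with total counts as the scaling.

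Large-subunit factors fell in 11 of 12 cases, with a median of -1.27. The PeBoW complex, which processes the precursor of the 28S and 5.8S rRNAs, comprises PES1, BOP1 and WDR12. BOP1 (ENSG00000261236.8, chromosome 8, 144262102 to 144291370) had 149, 134 and 114 CPM with the combination, 229, 219 and 296 with MI-3454 and 313, 374 and 298 with gilteritinib, against 312, 436 and 349 CPM with DMSO. The combination was lowest, MI-3454 lay below DMSO, and gilteritinib overlapped it. BOP1 changed by -1.46 ± 0.14 with the combination and -0.56 ± 0.16 with MI-3454, a call that ended without DMSO 2, DMSO 3, MI-3454 1 or MI-3454 2 (adjusted p up to 0.12), and its change with gilteritinib was -0.16 ± 0.14 (adjusted p = 0.49). With the combination PES1 changed by -1.36 ± 0.12 and WDR12 by -0.91 ± 0.12. NIP7, a pre-rRNA processing factor, had 23.7, 20.1 and 19 CPM with the combination, 47.6, 39.8 and 35.8 with MI-3454 and 38.5, 37.4 and 43 with gilteritinib, against 62, 52.6 and 67.6 CPM with DMSO. No treated library overlapped DMSO, and the changes were -1.53 ± 0.13, -0.56 ± 0.14 and -0.62 ± 0.12 with the combination, MI-3454 and gilteritinib, all called. The MI-3454 call ended without DMSO 1, DMSO 3 or MI-3454 2 (adjusted p up to 0.075).

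MRTO4, which occupies the place of the ribosomal stalk on pre-60S particles, had 41.9, 37.5 and 30.9 CPM with the combination, 68.5, 66.1 and 74.3 with MI-3454 and 89.7, 96.2 and 87.7 with gilteritinib, against 95.7, 107 and 94 CPM with DMSO. Gilteritinib reached into the range of DMSO, and the changes were -1.42 ± 0.12 with the combination, -0.50 ± 0.11 with MI-3454 and -0.12 ± 0.10 with gilteritinib (adjusted p = 0.46). NOP16 had 21.3, 20.6 and 15.2 CPM with the combination, 39.6, 32.9 and 41.1 with MI-3454 and 38.2, 47.9 and 44.8 with gilteritinib, against 49.2, 60.6 and 48.7 CPM with DMSO. The combination lay below all other groups, and both single agents lay below DMSO. The log2 change of NOP16 was -1.46 ± 0.14 with the combination, -0.48 ± 0.14 with MI-3454, a call that ended without DMSO 1, DMSO 2, MI-3454 1 or MI-3454 2 (adjusted p up to 0.14), and -0.28 ± 0.13 with gilteritinib (adjusted p = 0.16).

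PPAN, a pre-60S factor that shares 59.8% of its exon bases with other genes on its strand, among them a read-through with P2RY11, had 12.4, 9.40 and 8.36 CPM with the combination, 14.7, 13.8 and 16.1 with MI-3454 and 16.9, 16.7 and 17.1 with gilteritinib, against 21.7, 25.7 and 21.7 CPM with DMSO. All treated libraries lay below DMSO, and its change was -1.17 ± 0.16 with the combination and -0.63 ± 0.15 with MI-3454, and -0.44 ± 0.12 with gilteritinib, where the call ended without DMSO 1, DMSO 3, gilteritinib 1, gilteritinib 2 or gilteritinib 3 (adjusted p up to 0.11). With the combination, WDR74 changed by -1.36, RRP1B by -1.09, RRS1 by -0.98 and FTSJ3 by -0.55. NOP2 was the single gene not called, at -0.18 ± 0.30 (adjusted p = 0.63). It had 1.65, 1.80 and 2.13 CPM with the combination, 0.557, 0.925 and 1.41 with MI-3454 and 1.42, 1.58 and 0.659 with gilteritinib, against 1.91, 2.37 and 1.94 CPM with DMSO. The combination overlapped DMSO, and the lowest values were those of single-agent libraries.

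The 42 combination calls were nearly all kept in the alternatives. The number called lower ran from 41 to 42 when any single library was left out, and in 42 of 43 genes no combination library overlapped a DMSO library, where 30.8% of all tested genes did so in this direction and 32% in the other. With total counts as the scaling, 40 were called lower. UBTF and UTP20 were the genes whose calls ended.

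MI-3454 alone lowered a part of the set by smaller amounts. Against DMSO, 24 of 43 genes fell and 0 rose, or 8 and 0 when same-numbered libraries were taken as pairs. In the unpaired fit 19% of all tested genes were called, 8.95% lower and 10.1% higher. At an unadjusted p under 0.05, 32 were lower and 0 higher, and DESeq2 called 24 lower and 0 higher. All 43 log2 changes were negative, with a median of -0.44. The largest called falls were in DDX21 (-0.72 ± 0.15), PPAN (-0.63 ± 0.15), LYAR (-0.62 ± 0.13) and POLR1E (-0.61 ± 0.13). In 33 genes no MI-3454 library overlapped a DMSO library in this direction, against 16.6% of all tested genes. By role, 8 of 12 large-subunit genes, 6 of 10 small-subunit genes, 4 of 8 polymerase genes, 4 of 6 nucleolar proteins, 1 of 3 box C/D and 1 of 4 H/ACA proteins fell.

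Single libraries moved this number. Leaving out DMSO 3 gave 10 genes, MI-3454 1 gave 13, MI-3454 2 gave 12 and MI-3454 3 gave 28. The paired fit called 1678 of all tested genes in either direction, against 2658 in the unpaired fit. DDX21, LYAR, MRTO4, NOLC1, POLR1E, PPAN, RRP1B, WDR43 and WDR74, 9 of the 24, passed the test without any single library.

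Gilteritinib alone also lowered a part of the set. Against DMSO, 16 of 43 genes fell and 0 rose, or 27 and 0 when same-numbered libraries were taken as pairs, where in the unpaired fit 15.1% of all tested genes were called, 8.18% lower and 6.92% higher. At an unadjusted p under 0.05, 23 were lower and 0 higher, and DESeq2 called 16 lower and 0 higher. In all, 38 of 43 log2 changes were negative, with a median of -0.28. The largest called falls were in DDX21 (-0.70 ± 0.13), UTP15 (-0.67 ± 0.17), NIP7 (-0.62 ± 0.12) and RRN3 (-0.54 ± 0.13). In 24 genes no gilteritinib library overlapped a DMSO library in this direction, against 16.5% of all tested genes. By role, 4 of 8 polymerase genes, 5 of 10 small-subunit genes, 5 of 12 large-subunit genes, 2 of 6 nucleolar proteins and 0 of 7 snoRNP proteins fell. Of the 7 snoRNP proteins, 2 were lower at an unadjusted p under 0.05, and DESeq2 called 0. Other settings called more of them, with 3 under the replicate block, 4 without the 4 libraries highest in RN7SL1, 1 in the joint fit and 2 without DMSO 2. Of the 6 nucleolar proteins, 5 were called under the block and 4 without DMSO 2, against 1 without DMSO 3, gilteritinib 1 or gilteritinib 3.

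A fit that takes same-numbered libraries as pairs (a replicate block) called 27 genes lower with gilteritinib, and it called 4928 of all tested genes in either direction, against 2110 in the unpaired fit. Leaving out the 4 libraries highest in RN7SL1 also gave 27. Leaving out DMSO 3 gave 4 genes, gilteritinib 3 gave 5, gilteritinib 1 gave 9 and DMSO 1 gave 10. DDX21, NIP7 and WDR43 passed the test without any single library.

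**Figure D4:**
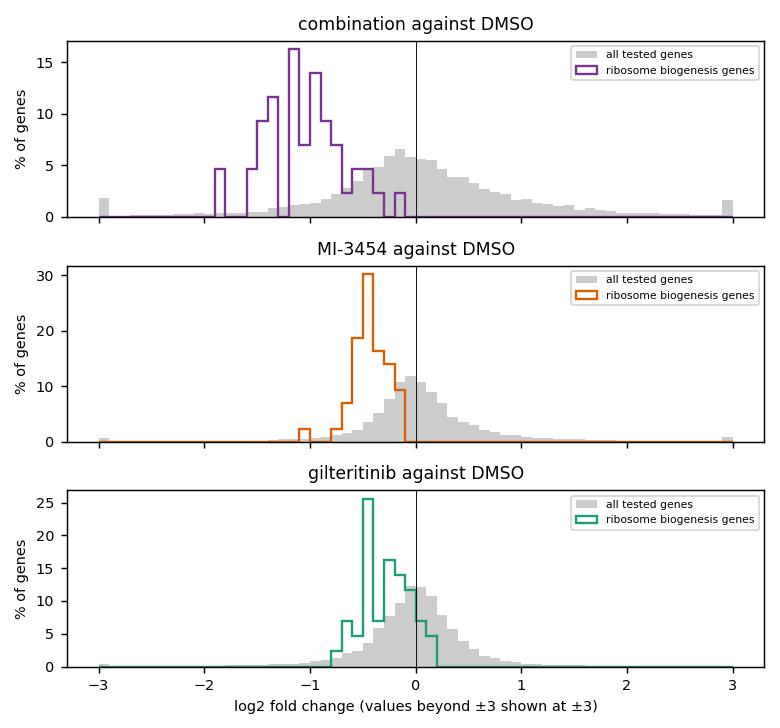
Share of genes (y axis, %) by log2 fold change against DMSO (x axis) for all 13972 tested genes (grey) and for the 43 genes (line), 1 panel per treatment. All 43 genes lie left of 0 with the combination and MI-3454, and 38 of 43 with gilteritinib.

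These comparisons share their DMSO libraries, and a call with 1 agent and not the other does not show that the agents differ. The direct comparison of MI-3454 with gilteritinib called 3 of 43 genes lower with MI-3454 and 0 higher, where 17.4% of all tested genes were called, 7.43% lower and 9.96% higher. At an unadjusted p under 0.05, 9 were lower and 1 (WDR12) higher, and DESeq2 called 4 lower and 0 higher. The 3 edgeR calls were MRTO4 (-0.40 ± 0.10), BYSL (-0.35 ± 0.11) and TCOF1 (-0.34 ± 0.10). BYSL was not among the DESeq2 calls. The number was 0 without MI-3454 1, MI-3454 2, gilteritinib 1 or gilteritinib 2, and 1 without gilteritinib 3. Leaving out MI-3454 3, the library of its group highest in RN7SL1, gave 13 lower and 3 higher.

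The set was also lower with both agents than with either alone. The combination was below MI-3454 alone in 36 of 43 genes and above it in 0, where 29.2% of all tested genes were called, 15.1% lower and 14.1% higher, with a median of -0.62. DESeq2 called 35 lower and 0 higher, and at an unadjusted p under 0.05 NOP2 was the 1 gene higher. The largest falls were in LYAR (-1.18 ± 0.14), DDX21 (-1.14 ± 0.11), NOLC1 (-1.06 ± 0.09) and NOP16 (-0.97 ± 0.14). The calls of FBL, GAR1, PPAN and RRN3 ended without MI-3454 1 or combination 2 or 3, and the count was then 32. Not called were UTP15 (-0.55), NOP10 (-0.40), UTP20 (-0.28), FTSJ3 (-0.21), UBTF (-0.17) and POLR1D (-0.17). NOP2, at 0.92 ± 0.38, was not called either (adjusted p = 0.086), but was higher without MI-3454 3.

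The combination was below gilteritinib alone in 41 of 43 genes and above it in 0, where 60.4% of all tested genes were called, 30.3% lower and 30.1% higher, with a median of -0.78. DESeq2 called 40 lower and 0 higher, and 0 were higher at an unadjusted p under 0.05. LYAR (-1.41 ± 0.15), BOP1 (-1.30 ± 0.11), MRTO4 (-1.29 ± 0.10) and BYSL (-1.23 ± 0.12) had the largest falls, and UTP15 (-0.31 ± 0.14) and NOP2 (0.58 ± 0.35) were not called. In 31 of 43 genes the group means followed the order combination, MI-3454, gilteritinib and DMSO, from lowest to highest.

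The interaction term, fitted to all 12 libraries, asks whether the log2 change with the combination differed from the sum of both single-agent changes. It was negative in 39 of 43 genes, with a median of -0.34 against -0.02 for all tested genes, and 14 genes were called lower than the sum and 1 higher. Over all tested genes 15.3% were called, 8.74% lower and 6.55% higher. NCL (-0.83 ± 0.23), BYSL (-0.80 ± 0.17), LYAR (-0.80 ± 0.20) and MRTO4 (-0.80 ± 0.15) had the largest negative terms. The term of NCL was -0.51 without gilteritinib 2, the library with its highest level and with the highest mitochondrial share. For BYSL, the log2 changes were -1.34 with the combination, -0.44 with MI-3454 and -0.10 with gilteritinib. DDX21, at -0.45 ± 0.18, did not pass (adjusted p = 0.1), and 0 of the 8 polymerase genes did with edgeR or DESeq2, 2 of them having an unadjusted p under 0.05. Leaving out DMSO 2 let 2 of the 8 pass, as did leaving out the 4 libraries with the most RN7SL1. Among these 8, RRN3 (0.15 ± 0.19), POLR1B (-0.03 ± 0.15) and POLR1D (0.02 ± 0.12) lay near 0 or above it.

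Of the 15 calls, BYSL, DKC1, LYAR and MRTO4 passed whichever single library was left out. The number lower ran down to 4 without combination 3 and 6 without combination 2, and was 7 without DMSO 1 or gilteritinib 2 and 9 without DMSO 3. The single positive call, NOP2 at 1.67 ± 0.50, rests on 178 counts and passed in 4 of the 12 fits that leave out a library.

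**Figure D5:**
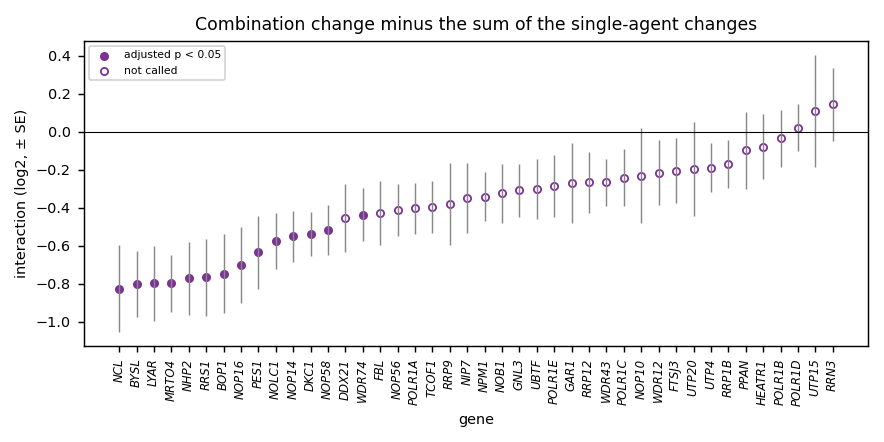
Interaction term on the log2 scale with its SE for 42 of the 43 genes in rising order (NOP2, at 1.67, is left off for scale). The 14 filled points are calls below 0, from NCL at -0.83 to WDR74 at -0.44, and the polymerase genes are all open points in this fit to all 12 libraries.

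MYC, the transcription factor gene, had 205, 179 and 160.5 CPM with the combination, 459.6, 452 and 523 with MI-3454 and 436, 499.9 and 449 with gilteritinib, against 654, 798 and 648 CPM with DMSO. The combination libraries were the lowest, both single agents lay between them and DMSO, and no treated library overlapped DMSO. Its log2 change was -1.95 ± 0.13 with the combination, -0.55 ± 0.13 with MI-3454, a call that ended without MI-3454 1 or MI-3454 2 (adjusted p up to 0.057), and -0.60 ± 0.12 with gilteritinib, and its interaction term was -0.79 ± 0.16 (adjusted p = 0.0046).

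Lists of other genes with the same roles were counted in the same fits, where the combination lowered 28.4% of all tested genes and raised 29.2%. With the combination, of 44 other small-subunit factors 41 fell and 0 rose, with a median log2 change of -0.76. WDR3 (-1.39 ± 0.12), TSR1 (-1.37 ± 0.11) and RCL1 (-1.33 ± 0.14) had the largest falls. Of 53 other large-subunit factors 47 fell and 1 rose, with a median of -0.83. MAK16 (-1.54 ± 0.12), RRP1 (-1.45 ± 0.13) and NLE1 (-1.39 ± 0.13) fell most, and NOL12, at 1.07 ± 0.25, was the gene that rose, named here after its value was seen.

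Of 10 snoRNP assembly genes 8 fell, among them the ATPase genes RUVBL1 (-1.20 ± 0.12) and RUVBL2 (-1.13 ± 0.13). Of 15 genes of the RNA exosome, which trims rRNA precursors, 11 fell, EXOSC4 most (-1.33 ± 0.14). Of 16 further polymerase I subunits and factors, 8 fell and 0 rose, with a median of -0.39. POLR1G (-1.37 ± 0.13), POLR1F (-1.34 ± 0.15) and the nucleolar repressor MYBBP1A (-1.29 ± 0.12) fell most.

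With the single agents fewer of these genes passed, where MI-3454 lowered 8.95% of all tested genes and gilteritinib 8.18%. MI-3454 lowered 13 of 44 small-subunit and 14 of 53 large-subunit factors and raised 0. At an unadjusted p under 0.05 these were 23 and 33, with 0 higher, and leaving out DMSO 1, DMSO 3, MI-3454 1 or MI-3454 2 gave 5 to 8 in each list. Over the other alternatives the numbers lowered ran from 4 to 22 of the 44 and from 2 to 33 of the 53. Gilteritinib lowered 14 of the 44 and 13 of the 53 and raised 0, with 23 and 31 under the replicate block, and leaving out DMSO 2 gave 23 and 24. Leaving out any other library of this comparison gave 1 to 6 of the 44. Over the other alternatives the numbers gilteritinib lowered ran from 10 to 27 of the 44 and from 13 to 31 of the 53. POLR1F differed in direction, since gilteritinib raised it by 0.81 ± 0.14 while the combination lowered it, and its interaction term of -1.64 ± 0.21 was called (adjusted p = 0.00011).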

How the data were processed

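The values are raw counts: the authors deposited, for each library, the whole number of reads assigned to each of 60668 genes, without normalization. The 5 summary lines of each file were left out. Per the submitters' processing notes, the tools were cutadapt (2.1), STAR (2.7.1a), HTSeq (0.11.2) and DESeq2, with the GRCh38 build. Neither the annotation release nor the strand setting is stated, so reads of a gene and an antisense or overlapping partner may not be told apart. In GENCODE 29, 24 of the 43 genes share exon bases with another gene, 17 of them with one on the opposite strand (UBTF, NOP14, MRTO4, NIP7 and NOP16 among the genes described). Names came from a table of Ensembl identifiers (60295 matched), and coordinates and exon lengths from GENCODE 29. Groups and replicate numbers follow the titles, since the treatment label of the MI-3454 groups ends in varying digits.

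Testing used edgeR 4.0.16 in R 4.3.3, with DESeq2 1.42.0 as an alternative. Genes passing filterByExpr were tested, each pair of groups in its own quasi-likelihood fit of 6 libraries with TMM scaling, and called at a Benjamini-Hochberg adjusted p under 0.05 over all tested genes. The interaction used all 12 libraries. Each SE was the log2 change divided by the root of its F value. Members, lists, tests and alternatives were chosen with earlier results of these data known. By rule, all 43 members may be named, library values are given for 11 fixed genes and for the 4 largest called changes per direction and comparison, and up to 3 called genes are named per other list. The fits against DMSO were also run on simulated counts with known changes. That simulation did not include the differences in read shares between libraries described above.

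Replicates differed beyond counting noise in every group. Same-numbered gilteritinib and DMSO libraries deviated together from their group means, with correlations over genes of 0.14, 0.39 and 0.11. The 0.39 belongs to gilteritinib 2 and DMSO 2, each the library of its group highest in RN7SL1. What the shared deviations stand for was not tested. All main fits were unpaired, and the replicate block was run as an alternative in every comparison. The labels do not say what the number stands for. Alternatives were other scalings, DESeq2, no filter, 1 joint fit, the replicate block and left-out libraries.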

Additional observations from a re-analysis of the deposited data

Results flagged for a closer look

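The effect of gilteritinib differed with and without MI-3454 in 15 of the 43 genes, by the interaction term of the edgeR fit to all 12 libraries (adjusted p under 0.05, against 15.3% of all tested genes). The log2 terms were -0.83 for NCL, -0.80 for BYSL, -0.80 for LYAR, -0.80 for MRTO4, -0.77 for NHP2, -0.77 for RRS1 and -0.75 for BOP1. They were -0.70 for NOP16, -0.64 for PES1, -0.57 for NOLC1, -0.55 for NOP14, -0.54 for DKC1, -0.52 for NOP58 and -0.44 for WDR74. Of the 15 calls, 4 held whichever single library was left out (BYSL, DKC1, LYAR and MRTO4). The term of NCL was -0.51 without gilteritinib 2, whose 1231 CPM stood above the 745 and 712 CPM of the other gilteritinib libraries. The call of NCL ended without DMSO 1, DMSO 3, MI-3454 1, combination 2 or combination 3 (edgeR adjusted p up to 0.076). NOP2 was the single call with a positive term, 1.67, at 178 counts in all. The call of WDR74 also ended with DESeq2 and with either other scaling. For NHP2 the gilteritinib effect was -0.61 with MI-3454 present and 0.15 without it, and for RRS1 it was -0.67 and 0.09. The share of reads outside annotated exons was highest in the combination libraries, at 28.5 to 36.5%, and its part in these terms was not tested.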

How the results depend on the processing

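No called log2 change of the 43 genes or MYC turned its sign in any alternative. With the replicate block, 8 genes were called lower with MI-3454 against DMSO and 0 with MI-3454 against gilteritinib. Under this block 0 genes were called with a positive interaction. Deviations of same-numbered libraries correlated at 0.11 to 0.39 for gilteritinib and DMSO, and at -0.39 to 0.21 for the other pairs of groups. The block gave 27 lower with gilteritinib against DMSO. Without the 4 libraries highest in RN7SL1, 27 were lower with gilteritinib against DMSO, 13 lower and 3 higher with MI-3454 against gilteritinib, and 1 higher (NOP2) with the combination against MI-3454. With no filter on low counts, 8 were lower with MI-3454 against gilteritinib. When each library was left out in turn, the numbers called lower ran from 41 to 42 for the combination against DMSO, 10 to 28 for MI-3454 and 4 to 20 for gilteritinib against DMSO. They ran from 32 to 37 and 39 to 42 for the combination against MI-3454 and gilteritinib, 0 to 13 for MI-3454 against gilteritinib and 4 to 17 for the interaction. The numbers called higher ran from 0 to 1 for the combination against MI-3454 and the interaction and 0 to 3 for MI-3454 against gilteritinib. The cause of these changes was not tested. Total counts in place of TMM moved the median log2 change of all genes by 0.10 for the combination against DMSO and 0.12 against gilteritinib. The lowest member, NOP2, has too few counts for its changes to be read.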

Other observations

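RNA polymerase III, which makes the 5S rRNA and transfer RNAs, was counted in the same fits. Of 22 tested subunits and factors 14 fell and 2 rose with the combination, which lowered 28.4% of all tested genes and raised 29.2%. The median log2 change of the 22 was -0.35. The number that fell was 9 without combination 2 or combination 3 and 8 with total counts as the scaling. The number that rose was 1 with DESeq2 and 1 to 2 when any single library was left out. Its alternative subunits moved in opposite directions: POLR3G, the form of dividing and stem cells, changed by -2.18 ± 0.24 with the combination, -0.76 ± 0.22 with MI-3454, a call that ended without DMSO 1, DMSO 3, MI-3454 1 or MI-3454 3 (adjusted p up to 0.13), and -0.88 ± 0.18 with gilteritinib, and POLR3GL by 0.80 ± 0.24 with the combination. POLR3G had 1.65, 1.90 and 2.13 CPM with the combination, 5.68, 5.65 and 3.69 with MI-3454 and 4.50, 4.37 and 4.94 with gilteritinib, against 7.71, 7.77 and 10.1 CPM with DMSO. The combination libraries were lowest and no treated library overlapped DMSO.

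The cell cycle lists moved otherwise than the ribosome biogenesis genes with gilteritinib. With gilteritinib, 9 of 13 S phase genes and 11 of 12 G2 and M phase genes rose and 0 fell, while 16 of the 43 ribosome biogenesis genes fell and 0 rose. Over all tested genes gilteritinib raised 6.92% and lowered 8.18%. The S phase count was 4 without gilteritinib 1 and 5 without DMSO 1, and the G2 and M phase count was 7 without gilteritinib 3. With the combination, 11 of 13 S phase genes fell (7 without combination 2), and of the G2 and M phase genes 4 rose and 2 fell (0 without DMSO 1, combination 2 or combination 3), MKI67 among the risen at 0.80 ± 0.10. Of 19 tested p53 target genes, 9 fell and 3 rose with the combination (2 without combination 2 or combination 3). Over all tested genes the combination lowered 28.4% and raised 29.2%. The G2 and M phase counts and the number of p53 targets that rose were thus near or below these shares. The p53-induced cell cycle inhibitor gene CDKN1A was at -1.38 ± 0.12 and BTG2 at -1.53 ± 0.11, whereas FAS, named after its value was seen, rose by 1.00.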
